A study of Mus musculus with 6 samples.

Results

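The canaliculus is the apical side of the hepatocyte, the small channel into which bile is secreted. Transporters in its membrane move each component of bile against a gradient: ATP-binding cassette (ABC) pumps export bile salts, phosphatidylcholine, sterols and conjugated organic anions, and P-type ATPases flip phospholipids between membrane leaflets and load copper for excretion. Bile salts alone damage membranes, and phosphatidylcholine and cholesterol secreted beside them form mixed micelles that hold this in check. Inherited loss of the human counterparts of several of these genes causes cholestasis, sitosterolaemia or copper overload.

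The 9 genes described here are Abcb11, Abcb4, Atp8b1, Abcg5, Abcg8, Abcc2, Abcg2, Abcb1a and Atp7b, named for their place and cargo and matched by symbol to 9 of the 54232 Ensembl genes counted. RNA sequencing was done on livers of male C57BL/6 mice on a chow diet, 8 to 10 weeks of age, in 2 groups of 3 libraries. Both groups were null for FXR (gene Nr1h4), a bile acid-activated nuclear receptor well known to induce Abcb11 and Abcb4. The SKO group carried floxed Xbp1 alleles, and the DKO group also lacked Xbp1 in the liver, where it drives transcription in the unfolded protein response. The comparison asked what the loss of hepatic XBP1 changed where FXR was already absent. No source used here names the Cre driver, and a group with FXR was not analysed here, so each change is relative to the SKO liver. Titles of 3 DKO libraries and 1 SKO library hold a pair of numbers whose meaning is not given, and separate animals are not stated for the libraries. P-values therefore rest on the spread among libraries, part of which may be technical.

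Total counts were 16966422 to 21107674 per library. Levels are given as counts-per-million (CPM), in which counts were divided by the library total times its trimmed-mean (TMM) scaling factor. A gene was called, and is said to have risen or fallen, at an adjusted p under 0.05 in edgeR's quasi-likelihood test over 13986 genes. Xbp1 ranged from 225 to 260.2 CPM in SKO and from 67.0 to 95.7 CPM in DKO (log2 -1.68 ± 0.14 (SE), edgeR adjusted p = 0.000146). Nr1h4 reads were counted at similar levels in both groups (98.4 ± 5.93 and 97.3 ± 3.34 CPM, mean ± SD, n = 3 per group) and, without knowing which exons the null allele lacks, do not check the FXR genotype. The first principal component held 65.7% of the variance, with DKO replicate 1 at 35.2, beyond the other DKO libraries at 14.5 and 20.3, and the SKO libraries between -26.8 and -21.2.

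Of the 9 exporter genes, 4 were called. Abcb4, Abcg5 and Abcg8, which serve phospholipid and sterol secretion, fell in DKO, and the drug exporter gene Abcb1a rose from a low level. Abcb4 and Abcg8 were called in all 11 alternative fits, but the calls for Abcg5 and Abcb1a each ended in 8 of them, and leaving out SKO replicate 2 or any 1 DKO library left only Abcb4 and Abcg8 called. Among all genes tested 20.0% were called, 9.70% lower and 10.3% higher. The log2 fold change was negative for 8 of the 9, with a median of -0.28 against 0.006 over all genes tested. For Abcg2 and Atp8b1 it was small (log2 -0.08 and -0.04), and with scaling by total counts alone it was positive (0.13 and 0.18). CPM did not overlap between the groups for 6 of the 9 genes, 5 of them lower in DKO, where 39.6% of all genes tested did not overlap in either direction. The gene for the bile salt export pump itself, Abcb11, was not called.

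Abcb11 encodes the bile salt export pump, the ATP-driven step that sets bile salt secretion. The gene (ENSMUSG00000027048) lies on chromosome 2, 69238282 to 69342616, minus strand, in mm10. It stood at 483, 408 and 329 CPM in SKO replicates 1 to 3 and 227, 317 and 316 CPM in DKO replicates 1 to 3. The lowest SKO library thus stood just above the 2 higher DKO libraries, and SKO replicate 1 and DKO replicate 1 lay at the extremes. The log2 fold change was -0.50 ± 0.17 (SE), with an interval of -0.89 to -0.12 (95%, not adjusted for the number of genes), and the test missed the threshold (edgeR adjusted p = 0.0688). Abcb11 passed it without SKO replicate 3 (log2 -0.64, edgeR adjusted p = 0.0390), with DESeq2 (adjusted p = 0.0101) and with no filter on low counts (1.16e-05). Without SKO replicate 1 or DKO replicate 1 its log2 fold change was -0.36 in both fits.

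Abcb4 encodes the floppase that moves phosphatidylcholine into the outer leaflet of the canalicular membrane. The gene (ENSMUSG00000042476, chromosome 5, 8893717 to 8959231, plus strand) stood at 363, 343 and 379 CPM in the SKO libraries and at 245, 234 and 241 CPM in the DKO libraries. All DKO libraries lay below all SKO libraries with little spread in either group. Abcb4 fell 1.51-fold (log2 -0.59 ± 0.08, edgeR adjusted p = 0.00118) and was called in each of the 11 alternative fits, which include leaving out each library in turn. The ratio of Abcb4 to Abcb11 counts within a library, which does not depend on scaling between libraries, was 0.753, 0.842 and 1.15 in SKO and 1.08, 0.738 and 0.765 in DKO. These ranges overlapped (difference in mean log2 ratio -0.09, two-sided exact permutation test p = 0.6, Benjamini-Hochberg adjusted p = 0.9 over 3 ratios).

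Promoter windows from RefSeq (GRCm38.p6, the mm10 assembly), 300 bases that run from 250 bases upstream of the annotated start, were searched because FXR and its relatives act through such sites and XBP1 through others. The windows of Abcb11 and Abcb4 are shown for the 2 genes whose proteins deliver the micelle's main parts, read 5′ to 3′ on the strand of the gene. Capitals mark any match to the nuclear receptor hexamer AGGTCA on either strand.

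Abcb11 chr2:69342567-69342866: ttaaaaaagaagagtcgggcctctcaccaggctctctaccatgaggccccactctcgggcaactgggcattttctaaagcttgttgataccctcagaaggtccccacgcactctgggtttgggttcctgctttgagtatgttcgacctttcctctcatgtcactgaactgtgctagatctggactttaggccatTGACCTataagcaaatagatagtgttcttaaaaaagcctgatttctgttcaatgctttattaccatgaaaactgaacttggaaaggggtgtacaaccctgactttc

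Abcb4 chr5:8893471-8893770: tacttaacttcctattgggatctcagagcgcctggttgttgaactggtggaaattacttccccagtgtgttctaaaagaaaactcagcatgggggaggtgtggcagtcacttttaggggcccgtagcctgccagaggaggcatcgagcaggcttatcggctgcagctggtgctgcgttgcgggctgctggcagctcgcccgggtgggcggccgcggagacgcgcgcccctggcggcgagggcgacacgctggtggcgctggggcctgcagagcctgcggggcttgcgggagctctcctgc

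The Abcb11 window held 1 such hexamer, 56 bases upstream of the start, and the Abcb4 window held none. The hexamer occurred in 5 of 11 exporter windows, from the 4 genes Abcb11, Abcc2, Abcg2 and Atp7b. It occurred in 16.3% of the 32851 windows of this length. Abcg2 had 3 of the 11 windows. No window of Atp8b1 was searched. The letters AGGTCANTGACCT, an inverted repeat of the hexamer spaced by 1 base, were in none of the 11 windows of the 8 exporter genes searched. They were in 0.00913% of all windows. The direct repeat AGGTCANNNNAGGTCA, spaced by 4 bases as in many LXR sites, was in none of them and in 0.0152% of all windows. The RefSeq window of Abcb1a (chr5:8566841-8567140) lies far upstream of the start of the gene in mm10 by GENCODE (8660077), so for Abcb1a the search says nothing about the letters at that start. None of the 11 exporter windows held ACGTG, which 19.6% of all windows held, nor the XBP1-bound 8-base element TGACGTGG that contains it (0.676%). None held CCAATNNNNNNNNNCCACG, the ER stress response element (0.119%). That element need not contain ACGTG. Its own end CCACG, which the printed Abcb11 window holds, was not searched alone. These searches used both strands and describe only letters in these windows. Both repeats, TGACGTGG and the ER stress response element are so rare among all windows that their absence from 11 carries no information.

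Atp8b1 encodes the P-type ATPase that flips aminophospholipids inward and keeps the canalicular membrane ordered. Its mRNA (ENSMUSG00000039529, chromosome 18, 64528967 to 64661267, minus strand) stood at 32.9, 36.1 and 39.6 CPM in the SKO libraries and at 36.6, 36.7 and 32.6 CPM in the DKO libraries. The lowest and highest DKO libraries lay below the lowest and highest SKO libraries, with the ranges overlapping. Atp8b1 was not called (log2 -0.04 ± 0.09, interval -0.24 to 0.16, edgeR adjusted p = 0.807). Its sign turned under upper-quartile (log2 0.03) and total-count scaling (log2 0.18), and without SKO replicate 3 (log2 0.03) or DKO replicate 3 (log2 0.01). Tmem30a, the subunit that such flippases need to leave the ER, was 226 ± 13.9 and 205 ± 7.44 CPM (log2 -0.14 ± 0.08, edgeR adjusted p = 0.262).

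**Figure D1:**
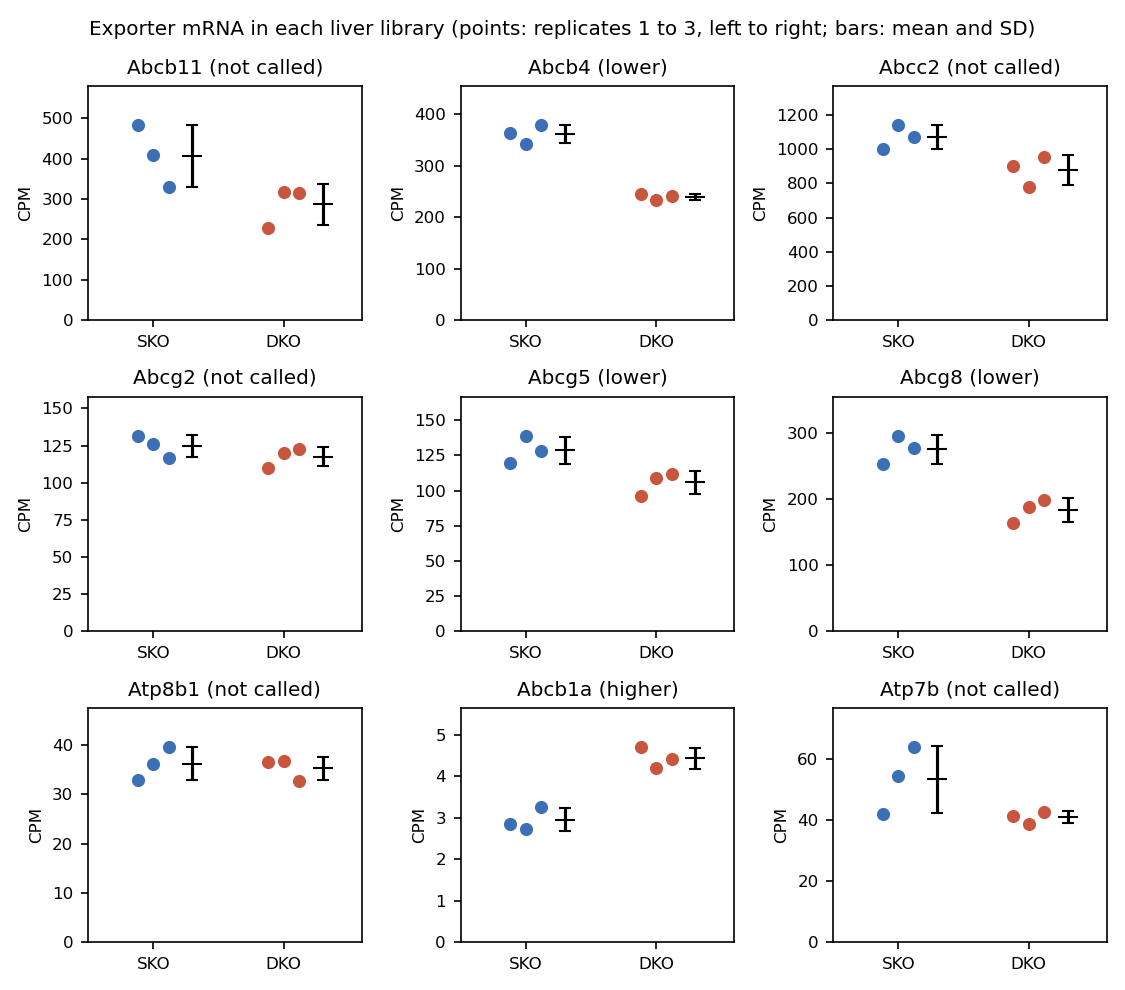
CPM of each exporter gene (vertical axes from 0) in the SKO and DKO liver libraries, with points for replicates 1 to 3 from left to right and bars for the mean and SD. The DKO points lie below all SKO points for Abcb11, Abcb4, Abcc2, Abcg5 and Abcg8 and above them for Abcb1a.

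Abcg5 and Abcg8 encode the subunits of 1 heterodimer, which exports cholesterol and plant sterols and is a classical target of the liver X receptors (LXR). The genes lie head to head on chromosome 17: Abcg5 (ENSMUSG00000040505) from 84658234 to 84683011 on the minus strand and Abcg8 (ENSMUSG00000024254) from 84676302 to 84700333 on the plus strand. RefSeq gives Abcg8 2 promoter windows, 1 of them (chr17:84676052-84676351) within the annotated Abcg5 gene, which overlaps Abcg8. The start site of the other is separated from that of Abcg5 by 109 bases, so these promoter windows share 209 bases. This shared stretch is printed on the plus strand, where the capitals mark the bases between the start sites.

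Abcg5 and Abcg8 chr17:84682962-84683170: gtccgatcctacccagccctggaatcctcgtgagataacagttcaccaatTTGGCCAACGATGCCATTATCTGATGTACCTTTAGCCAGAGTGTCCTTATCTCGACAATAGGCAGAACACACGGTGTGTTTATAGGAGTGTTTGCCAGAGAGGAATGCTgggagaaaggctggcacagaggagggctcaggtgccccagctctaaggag

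Abcg8 reached 253, 296 and 278 CPM in SKO and 164, 188 and 199 CPM in DKO. Every DKO library was below every SKO library. Abcg8 fell 1.5-fold (log2 -0.58 ± 0.10, edgeR adjusted p = 0.00341) and was called in all 11 alternative fits. Abcg5 reached 119, 139 and 128 CPM in SKO and 96.4, 109 and 112 CPM in DKO, also with no overlap but closer together. Its fall was smaller (log2 -0.28 ± 0.09, edgeR adjusted p = 0.0429), and the call ended in 8 of 11 alternatives: without SKO replicate 2, SKO replicate 3 or any DKO library (edgeR adjusted p = 0.0593 to 0.164), with limma-voom (0.0522), and with scaling by upper quartiles (0.0853) or total counts (log2 -0.07, edgeR adjusted p = 0.521).

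The counts of Abcg5 and Abcg8 were compared within each library. Abcg5 counts were 0.472, 0.469 and 0.461 of those of Abcg8 in SKO and 0.587, 0.581 and 0.561 in DKO. The groups were far apart relative to their spread, with a mean log2 ratio of -1.10 ± 0.02 in SKO and -0.80 ± 0.03 in DKO (SD, n = 3). The difference of 0.30 gave p = 0.1 in a two-sided exact permutation test, the smallest p that 3 against 3 allows (adjusted p = 0.3 over 3 ratios), so this design cannot pass 0.05 for it. Without any 1 library the difference stayed between 0.29 and 0.32. The annotated exons of the pair share 82 bases on opposite strands, which is 3.02% of the exon length of Abcg5 and 2.19% of that of Abcg8, and how the counting treated reads there is not given. The ratio of Abcg5 plus Abcg8 to Abcb11 was 0.771, 1.07 and 1.23 in SKO and 1.15, 0.937 and 0.984 in DKO, with overlapping ranges (difference in mean log2 ratio 0.02, two-sided exact permutation p = 1).

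**Figure D2:**
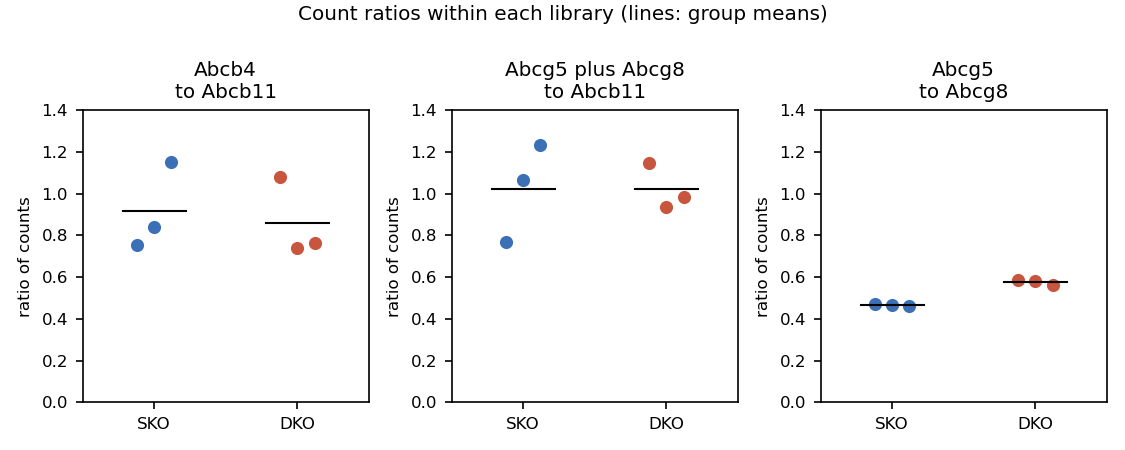
Ratio of counts (vertical axis from 0) within each SKO and DKO library for 3 pairs of exporter genes, with points for replicates 1 to 3 from left to right and lines at group means. The ratio of Abcg5 to Abcg8 is 0.461 to 0.472 in SKO and 0.561 to 0.587 in DKO, while the other ratios overlap between groups.

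Abcc2 encodes MRP2, the exporter of bilirubin glucuronides, glutathione conjugates and other organic anions. The gene (ENSMUSG00000025194, chromosome 19, 43782192 to 43840740, plus strand) had the highest level of the set, at 999, 1139 and 1068 CPM in SKO and 899, 779.7 and 952 CPM in DKO. All DKO libraries were lower, but the closest libraries of the groups were near each other. Abcc2 was not called (log2 -0.29 ± 0.11, interval -0.53 to -0.04, edgeR adjusted p = 0.0939). It passed the threshold with DESeq2 (adjusted p = 0.0306) and in no other alternative, and with total counts its log2 fold change was -0.06.

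Abcg2, or BCRP, exports a broad range of compounds including urate, porphyrins and sulfated steroids. Its gene (ENSMUSG00000029802, chromosome 6, 58584523 to 58695676, plus strand) gave 131, 126 and 116 CPM in SKO and 110.3, 119.8 and 123 CPM in DKO. The groups overlapped. Abcg2 was not called (log2 -0.08 ± 0.08, interval -0.26 to 0.09, edgeR adjusted p = 0.486), and with total counts the sign turned (log2 0.13).

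Abcb1a encodes a P-glycoprotein, an exporter of hydrophobic drugs known from the blood-brain barrier and gut as well as from liver. The gene (ENSMUSG00000040584, chromosome 5, 8660077 to 8748575, plus strand) was counted only 45, 50 and 58 times in SKO and 112, 86 and 85 times in DKO. In CPM its level was 2.86, 2.74 and 3.26 in SKO and 4.70, 4.20 and 4.41 in DKO, without overlap. Abcb1a rose 1.5-fold (log2 0.59 ± 0.17, edgeR adjusted p = 0.0385). The call ended on leaving out any 1 of the 6 libraries (edgeR adjusted p = 0.0546 to 0.132), with DESeq2 (0.0710) and with no filter on low counts (0.0558). Its paralogue Abcb1b had means of 1.58 ± 0.102 and 1.81 ± 0.717 CPM, with no call (log2 0.18 ± 0.31, edgeR adjusted p = 0.721). How reads that match both genes were treated is not given, and they may have been dropped, so the level of each is uncertain. Abcb1a lies on the same strand as its relative Abcb4, 145141 bases away, and their changes had opposite signs.

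Atp7b encodes the copper-transporting ATPase that loads ceruloplasmin and excretes copper into bile. The gene (ENSMUSG00000006567, chromosome 8, 21992785 to 22060305, minus strand) gave 42.0, 54.3 and 63.8 CPM in SKO and 41.3, 38.8 and 42.7 CPM in DKO. SKO replicate 1 lay within the DKO range and the other SKO libraries lay above it. Atp7b was not called (log2 -0.38 ± 0.14, interval -0.69 to -0.08, edgeR adjusted p = 0.0798). It was called without SKO replicate 1 (log2 -0.53, edgeR adjusted p = 0.00592), with DESeq2 (0.0449) and with no filter (0.000314).

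**Figure D3:**
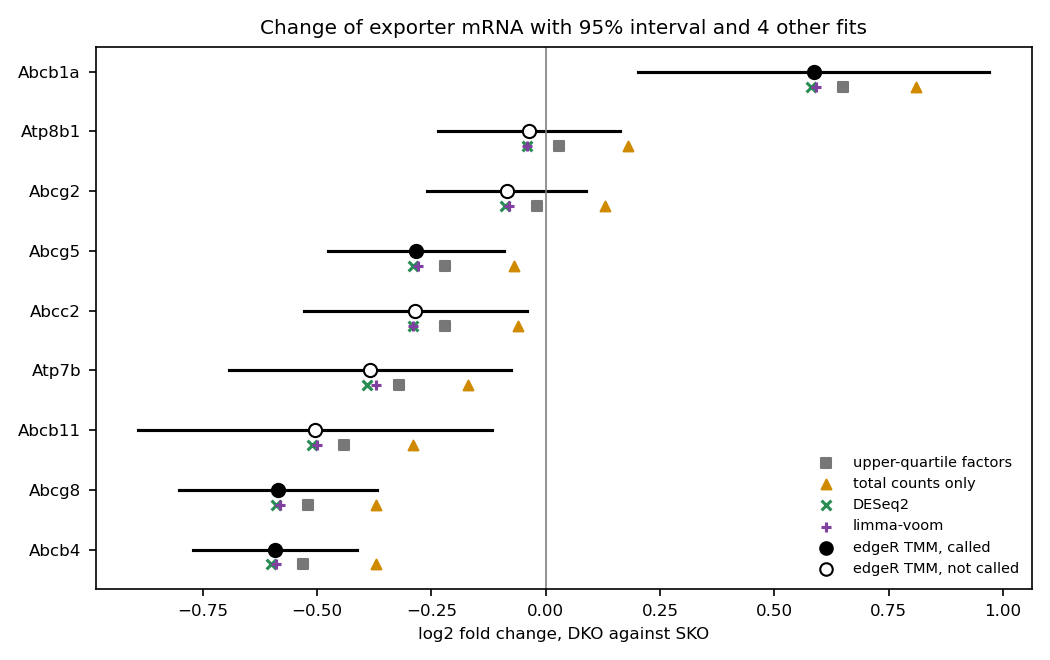
Log2 fold change of each exporter gene, DKO against SKO, on the horizontal axis, as circles with 95% intervals (filled where called) and, under each, the values of 4 other fits. Abcb4 and Abcg8 lie lowest at -0.59 and -0.58, Abcb1a alone lies above 0 at 0.59, and total counts move each gene to the right.

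Scaling matters for changes of this size. With total counts alone the median gene moved from 0.006 to 0.23 on the log2 scale, and the share of called genes that were higher went from 51.6% to 87.7% (65.3% with upper-quartile factors), so each fold change here is relative to the median gene. Under total counts Abcb4 and Abcg8 were still called, both at log2 -0.37 (adjusted p = 0.0118 and 0.0112 by edgeR), as was Abcb1a at log2 0.81 (0.0123), and no other exporter gene was.

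Levels were compared between genes only per length, as CPM per kilobase of annotated exon. In SKO the order was Abcc2 (125 ± 8.21), Abcb11 (79.0 ± 14.9), Abcg8 (73.5 ± 5.74), Abcg5 (47.4 ± 3.56), Abcb4 (38.6 ± 1.91), Abcg2 (15.3 ± 0.938), Atp7b (8.20 ± 1.68), Atp8b1 (5.39 ± 0.496) and Abcb1a (0.539 ± 0.0502), mean ± SD with n = 3. Abcb11 and Abcg8 were not apart beyond their spread, with libraries at 63.9 to 93.8 and 67.5 to 78.9, and the libraries of each other neighbouring pair did not overlap. The same order held in DKO, from 103 ± 10.3 for Abcc2 through 55.7 ± 10.0 for Abcb11 and 49.0 ± 4.73 for Abcg8 to 0.809 ± 0.0463 for Abcb1a. Again the libraries of Abcb11 and Abcg8 alone overlapped among neighbours. Exon lengths here join all annotated isoforms (2.71 kilobases for Abcg5 to 9.38 for Abcb4), so isoforms not used in liver lower a gene's value. Summed over the 9 genes, in CPM not divided by length, the libraries stood at 2405 to 2544 in SKO and 1825 to 2022 in DKO, of which Abcc2 made up 43.4% and 46.3% on average.

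**Figure D4:**
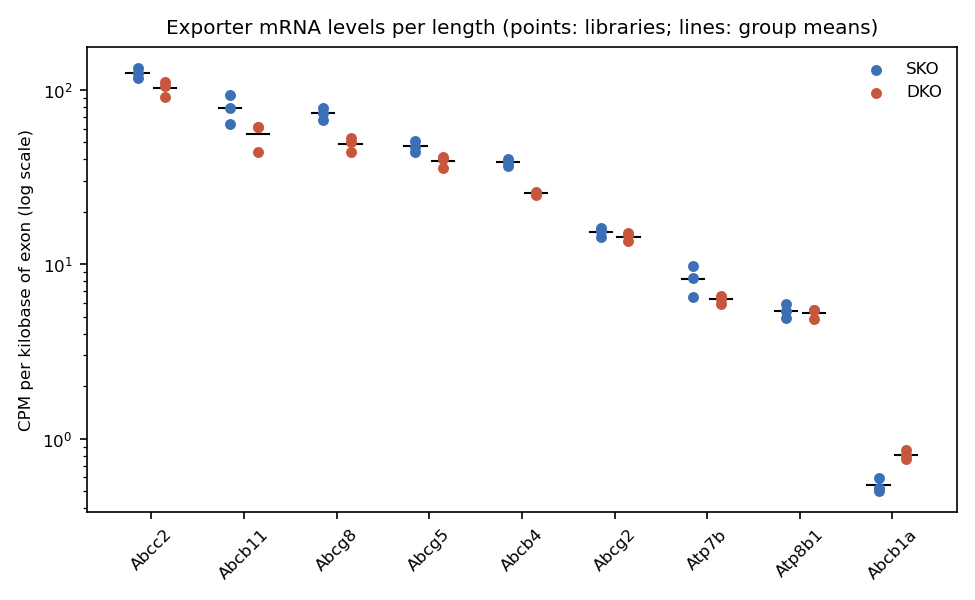
CPM per kilobase of exon (log axis) of each exporter gene, ordered by the SKO mean, with points for libraries and lines for group means. Levels run from 125 for Abcc2 to 0.539 for Abcb1a in SKO, and the order is the same in DKO.

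Each exporter gene was also compared with all other tested genes of at least 10 CPM, by the root mean square difference of log2(CPM + 1), centred on the gene's own mean, over the 6 libraries. The profiles nearest to that of Abcb11 were those of Gsta3 (0.086) and Sdr9c7 (0.088), and those nearest to Abcb4 were A1cf (0.041) and Ormdl1 (0.042). For Abcg8 these were Cdc14b (0.019) and Fnip2 (0.029), and for Abcg5 they were Sord (0.018) and Zranb1 (0.019). The exporter gene nearest to Abcg5 was not Abcg8 but Abcc2 (0.113), at place 1241 of 8214, and that nearest to Abcg8 was Abcb4 (0.132). The genes nearest to the others were Col4a3bp (0.038) and 9930021J03Rik (0.035) for Abcc2, Cuta (0.019) and Zkscan5 (0.021) for Abcg2, Gtf2i (0.024) and Anxa11 (0.030) for Atp8b1, Ipo4 (0.036) and Ctps (0.041) for Abcb1a, and Hnrnpd (0.059) and Trim56 (0.067) for Atp7b. These are descriptions over 6 libraries that differ mainly by genotype. For Abcb1a, itself under 10 CPM, the 1 added before the log shrinks the differences between libraries.

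Other genes of bile formation were taken from 8 lists of 92 genes, of which 86 were tested. Of these, 15 fell and 7 rose, or 17.4% and 8.14% against 9.70% and 10.3% of all genes tested, with a median log2 fold change of -0.09. By list the share that fell was 0 to 30% and the share that rose was 0 to 16.7%, with 6 to 18 tested genes in each. Among 13 nuclear receptors and other regulators of the exporters, 3 fell: Nr0b2, the repressor SHP induced by FXR (13.5 ± 2.46 to 7.0 ± 0.404 CPM, log2 -0.95 ± 0.14, edgeR adjusted p = 0.00217), the fatty acid receptor gene Ppara (log2 -0.66 ± 0.07) and Nr5a2, or LRH-1 (log2 -0.24 ± 0.07). None rose by the main edgeR fit, DESeq2 or limma-voom, and 1 was higher at an unadjusted edgeR p under 0.05. The LXR genes Nr1h3 and Nr1h2 were not called (log2 -0.19 ± 0.08 and 0.17 ± 0.08, edgeR adjusted p = 0.128 and 0.139). The call for Nr5a2 ended in 8 of 11 alternatives, among them the fits without any single library except DKO replicate 2, and with total counts its log2 fold change was -0.02. Nr1h2 was called higher with total counts (log2 0.39).

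Among 11 LXR targets, which are of interest beside Abcg5 and Abcg8, 3 fell and 1 rose. The falls were in the lipogenic genes Srebf1 (log2 -1.47 ± 0.10) and Scd1 (log2 -2.15 ± 0.19) and in the phospholipid transfer protein gene Pltp (log2 -0.75 ± 0.12), and the rise was in the lipoprotein lipase gene Lpl (log2 1.12 ± 0.28), named after its value was seen. The sterol exporters of this list were not called: Abca1 was 245 ± 23.6 and 214 ± 1.04 CPM (log2 -0.20 ± 0.09, edgeR adjusted p = 0.146) and Abcg1 was 8.35 ± 2.10 and 10.5 ± 1.96 CPM (log2 0.34 ± 0.20, edgeR adjusted p = 0.275). The call for Lpl ended without SKO replicate 1, 2 or 3 or DKO replicate 3 (adjusted p at most 0.132 in edgeR) and without a filter (0.128). The list's median log2 fold change was -0.14.

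Of 8 genes that bring sterol to the hepatocyte or to bile, 2 fell, among them the hepatic lipase gene Lipc (199 ± 18.8 to 115 ± 20.1 CPM, log2 -0.79 ± 0.13, edgeR adjusted p = 0.00351). None rose by the main edgeR fit, DESeq2 or limma-voom, and 1 was higher at an unadjusted edgeR p under 0.05. Of 10 genes of phosphatidylcholine supply, beside Abcb4, 3 fell and 1 rose. Pltp, Pcyt2 of the ethanolamine branch (441 ± 19.7 to 306 ± 26.2 CPM, log2 -0.53 ± 0.09) and the phosphatidylcholine transfer protein gene Pctp (log2 -0.39 ± 0.08) fell, and the choline kinase gene Chka, named after its value was seen, rose (22.3 ± 2.87 to 38.1 ± 9.21 CPM, log2 0.78 ± 0.17, edgeR adjusted p = 0.0182). Chka missed the threshold without SKO replicate 2 or 3 (adjusted p at most 0.0702 in edgeR), and Pctp with total counts (log2 -0.17, 0.141). Pemt, which makes phosphatidylcholine by methylation in liver, was 242 ± 18.3 and 252 ± 18.4 CPM (log2 0.06 ± 0.09, edgeR adjusted p = 0.7) and was called higher with total counts only (log2 0.28).

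Of 18 partners that anchor or sort canalicular proteins, 11.1% rose and 5.56% fell, beside 10.3% and 9.70% of all genes tested. The scaffold gene Slc9a3r1 fell (263 ± 19.4 to 190.5 ± 2.87 CPM, log2 -0.47 ± 0.08, edgeR adjusted p = 0.0045), and the apical syntaxin gene Stx3 (log2 0.40 ± 0.10) and the tight junction gene Cldn1 (log2 0.21 ± 0.07) rose. The call for Cldn1 ended in 9 of 11 alternatives, among them the fits without any 1 library, and Stx3 lost its own on omitting SKO replicates 2 or 3 or DKO replicate 1 (adjusted p at most 0.0924 in edgeR). Rdx, the radixin that ties Abcc2 to actin, was 316 ± 7.74 and 271 ± 16.1 CPM (log2 -0.22 ± 0.08, edgeR adjusted p = 0.0898). None of 6 other canalicular transporters was called by the main edgeR fit, DESeq2 or limma-voom, and at an unadjusted edgeR p under 0.05 there was 1, lower. The drug and cation exporter gene Slc47a1 was 207 ± 6.84 and 175.5 ± 21.5 CPM, and the water channel gene Aqp8 was 78.2 ± 20.1 and 67.8 ± 7.73 CPM. With total counts 8 of the 18 partner genes were higher and 1 lower, beside 3848 higher and 539 lower of all 13986 genes tested.

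On the basolateral side, which faces blood, 3 of 11 tested transporter genes fell and 1 rose. Slco2b1 (217 ± 19.0 to 127 ± 13.8 CPM, log2 -0.78 ± 0.10, edgeR adjusted p = 0.000936), Abcc6 (log2 -0.41 ± 0.10) and the bile salt uptake carrier gene Slc10a1 (766 ± 54.8 to 552 ± 85.7 CPM, log2 -0.47 ± 0.13, edgeR adjusted p = 0.0259) fell, and both Slc10a1 and Abcc6 missed the threshold on omitting SKO replicate 2 or 3 (adjusted p at most 0.108 in edgeR) or with total counts (log2 -0.26 and -0.20). The rise was in the organic anion carrier gene Slco1a4 (log2 0.42 ± 0.13, edgeR adjusted p = 0.0481), named after its value was seen, and this call ended without SKO replicate 1 or 3 or DKO replicate 1 or 3 (adjusted p at most 0.147 in edgeR) and with limma-voom (0.0549). The efflux pump gene Abcc4 was 9.96 ± 0.866 and 27.9 ± 15.8 CPM (log2 1.5 ± 0.50, edgeR adjusted p = 0.105), with a call from DESeq2 (0.0212) and without DKO replicate 2 (log2 1.84, edgeR adjusted p = 0.00146). Whether canalicular and basolateral genes differed in their change was not tested.

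Of 12 tested copper genes, beside Atp7b, the metallothionein genes Mt1 (222 ± 56.9 to 656 ± 136 CPM, log2 1.56 ± 0.21, edgeR adjusted p = 0.00318) and Mt2 (57.5 ± 24.1 to 195 ± 56.7 CPM, log2 1.76 ± 0.40, edgeR adjusted p = 0.0405) rose. Metallothioneins bind zinc as well as copper. Commd1, which is needed for copper export into bile, fell (20.3 ± 2.29 to 16.0 ± 1.08 CPM, log2 -0.35 ± 0.11, edgeR adjusted p = 0.0440). Among the fits with 1 library left out, Mt2 kept its call only on omitting SKO replicate 3 (adjusted p at most 0.127 in edgeR), and it lost the call with no filter on low counts (0.101). Commd1 likewise kept its call only without SKO replicate 3 (at most 0.143), and it lost it with scaling by upper quartiles (0.0841) or total counts (0.355) and with DESeq2 (0.062) or limma-voom (0.0554).

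**Figure D5:**
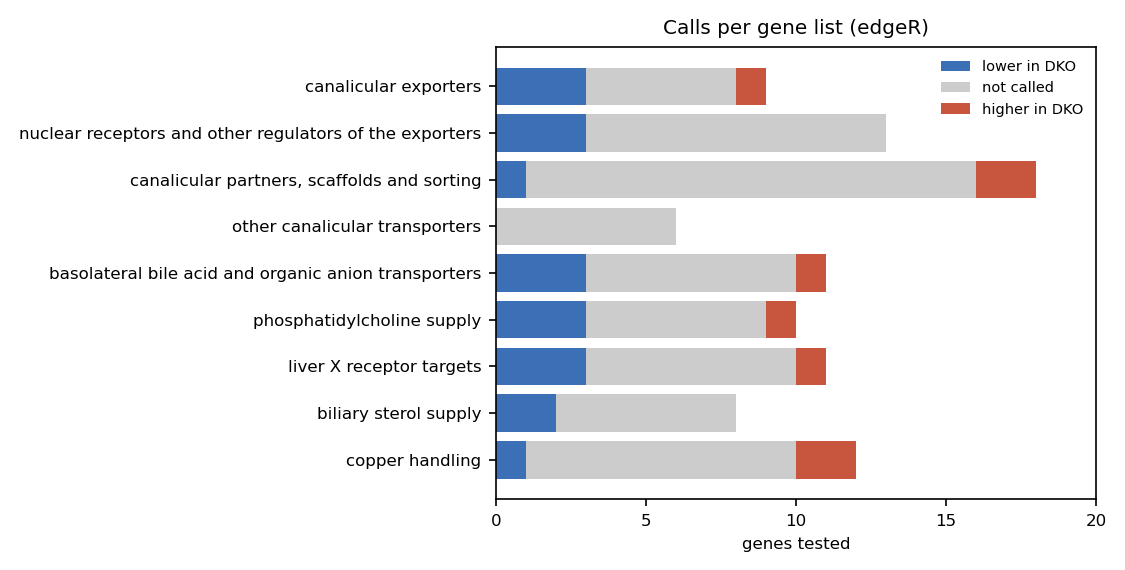
Number of tested genes (horizontal axis) in each list that were lower, not called or higher in DKO by edgeR. The exporter genes have 3 lower and 1 higher of 9, and the other lists have 0 to 3 lower and 0 to 2 higher.

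Libraries from whole liver hold several cell types, and fewer cells of a type cannot be told apart from less RNA per cell. Of 6 hepatocyte markers, all counted in all libraries at high levels, 3 fell, the plasma protein genes Alb (log2 -0.89), Apoa1 (log2 -0.78) and Ttr (log2 -0.53). Cps1 of the urea cycle (log2 -0.24, edgeR adjusted p = 0.314), the asialoglycoprotein receptor gene Asgr1 (log2 -0.05, 0.707, and 0.17 on the log2 scale with total counts) and the hepatocyte nuclear factor gene Hnf4a (log2 0.10, 0.599) were not called. The 6 summed to 75220 to 102800 CPM in SKO and 48490 to 59100 CPM in DKO, and most of this was Alb, with means of 66400 and 35800 CPM. Without SKO replicate 2 neither Alb, Apoa1 nor Ttr was called (edgeR adjusted p = 0.0503, 0.0749 and 0.185). Apoa1 also missed the threshold without SKO replicate 3 (0.0535), and the call for Ttr ended in 7 of 11 alternatives, with adjusted p up to 0.185 among them. Of 6 markers each, 3 cholangiocyte markers (sum 61.1 to 73.9 and 121 to 199 CPM), 4 stellate cell markers (80.9 to 126 and 167 to 262 CPM) and 2 macrophage markers (383 to 484 and 493 to 750.5 CPM) rose and none fell. Most of the cholangiocyte sum was Spp1, with means of 55.6 CPM in SKO and 134 CPM in DKO. Krt19 (0.974 to 2.32 CPM) and Epcam (2.13 to 4.97 CPM) also rose, from low levels, and Krt7, Sox9 and Cftr were not called. Cholangiocytes and macrophages also carry ABC transporters. Endothelial markers, of interest beside Abcb1a, summed to 349 to 380 CPM in SKO and 325 to 356 CPM in DKO. None of these 6 was called by edgeR, and 1 was lower at an unadjusted p under 0.05. Lymphocyte markers summed to 15.9 to 22.8 and 22 to 36.0 CPM, with none of 5 called by edgeR and 1 higher at an unadjusted p under 0.05. That 1 was Ptprc, which made up most of the sum, with means of 17 CPM in SKO and 26.3 CPM in DKO. No other marker of this list had a mean above 1.11 CPM. No marker in these lists was at 0 over all libraries. The part of cell makeup in the exporter results was not tested.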

How the data were processed

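Gene expression was measured by RNA sequencing in livers of 2 groups with 3 libraries each. The authors deposited raw read counts per Ensembl gene, 1 file per library, as whole numbers. Per the submitters' processing notes, the build was mm10 and the tools included HTSeq 0.6.1p1, STAR, cutadapt 1.13 and DESeq2. Tool settings, annotation and strand use are not given in those notes. Symbols and exon lengths came from GENCODE M21, which matched 54079 of 54232 identifiers.

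The main test was edgeR's quasi-likelihood F-test (version 4.0.16, under R 4.3.3) of DKO against SKO, two-sided, after filterByExpr and TMM scaling, using robust glmQLFit on 4 residual degrees of freedom. P-values were adjusted by Benjamini-Hochberg over the 13986 genes tested. The SE is the log2 fold change divided by the square root of F. Ratios within libraries were tested over the 20 splits of 3 against 3. DESeq2 1.42.0, limma-voom (limma 3.58.1), other scalings, no filter and leaving out each library were the alternatives. The fit was checked on simulated counts. Chi-square values per degree of freedom for pairs of libraries in a group were 10.3 to 29.8, so none was a duplicate.

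The members and lists were chosen with earlier results of these data known. The rule for genes named took all 9 members, Xbp1 and Nr1h4, the 3 called genes with the smallest p per list (or the 2 with the highest mean CPM where none was called) and the 2 nearest profiles per member. Others were named as background or after their values were seen: Tmem30a, Abcb1b, Nr1h2, Nr1h3, Abca1, Abcg1, Lpl, Chka, Pemt, Rdx, Slco1a4, Abcc4, Alb, Apoa1, Ttr, Cps1, Asgr1, Hnf4a, Spp1, Krt19, Epcam, Krt7, Sox9, Cftr and Ptprc. Genes not tested from the lists were 6 with few counts. Promoter windows were taken from RefSeq for 8 of the 9 genes, leaving out Atp8b1. A gene that the rule chose is not reported here.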

Additional observations from a re-analysis of the deposited data

How the results depend on the processing

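Abcb4 and Abcg8 were called lower in all 11 alternatives. Exporter genes called lower numbered 6 with DESeq2 and 5 without a filter, against 3, and 2 to 4 on leaving out 1 library. Of all genes tested, 19.6% were called in either direction with DESeq2 and 13.5% without a filter, against 20.0%. On leaving out 1 library this share was 9.91% to 19.2%. Called higher was 0 with DESeq2, without a filter and on leaving out any 1 library (0 to 0), against 1, and in each of these fits 1 was higher at an unadjusted p under 0.05. List genes called higher were 26 of 86 with total counts, where 3848 of all 13986 genes tested were called higher. Against this stood 7 in the main fit, with 1446 of all genes, and 2 to 7 on leaving out 1 library. List genes called lower were 11 to 15 on leaving out 1 library, against 15. By list, calls that moved by over 1.5 times ranged over the alternatives from 0 to 8 higher for partners (against 2), 0 to 4 higher and 1 to 4 lower for basolateral transporters (against 1 and 3), 0 to 3 higher for phosphatidylcholine supply and for LXR targets (against 1 each), 0 to 1 higher for regulators and for sterol supply (against 0 each), 0 to 1 in each direction for other canalicular transporters (against 0) and 1 to 5 higher and 0 to 1 lower for copper genes (against 2 and 1). Over all genes 4387 were called with total counts, against 2803, and 1419 to 2739 on leaving out 1 library. Total counts moved the median gene by over 0.1, and other causes were not tested. The difference in log2 ratio ranged on leaving out 1 library from -0.26 to 0.09 for Abcb4 to Abcb11, from -0.17 to 0.17 for Abcg5 plus Abcg8 to Abcb11 and from 0.29 to 0.32 for Abcg5 to Abcg8. Depth limits Abcb1a most, with 45 counts in its lowest library. No paired analysis was possible because the labels give no replicate numbers that tie libraries of the groups.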
